A study of Rattus norvegicus with 180 samples.

Results

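The eyeball was compared with every other organ of a microarray atlas of rat microRNAs (miRNAs). The whole eyeball of rats 4, 5 and 6 gave 3 arrays, which were set against the arrays of the other 54 organs of the same 3 rats, in a series of 180 arrays. All rats were male Sprague-Dawley animals aged 10 weeks, and rats 4 to 6 were perfused with saline before the organs were taken. The remaining 15 arrays came from 5 organs of 3 rats that were not perfused, and they entered only an alternative fit. Each array held RNA from 1 organ of 1 animal, so the rat is the replicate. The labels name the tissue only as eyeball. Retina, lens, cornea, iris, pigment epithelium, choroid and sclera were therefore measured as a mixture, and neither the labels nor the study's methods say how far eye muscle, conjunctiva and nerve stump were trimmed. In such a mixture, fewer cells of a type and less RNA per cell cannot be told apart.

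miRNAs are short RNAs that repress messenger RNAs, which they recognise mainly through the seed, bases 2 to 8 from the 5′ end. In the eye, miR-184 is known from the epithelia of cornea and lens, miR-204 and miR-211 from retinal pigment epithelium, ciliary body and lens, and the miR-183 cluster from photoreceptors and other sensory cells. miR-124 and miR-9 mark neurons of retina and brain alike. miR-205 and miR-203 belong to stratified surface epithelium such as skin and cornea.

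The mature sequences of the miRNAs that carry the results below are from RefSeq (GRCr8), where 18 of 19 names that were looked up had an entry. They are written 5′ to 3′ with the seed in capitals. The first 6 are the miRNAs for which every eyeball array lay above all arrays of other organs, miR-9, miR-128 and miR-137 are neuronal miRNAs that part eyeball from brain, and miR-205 is the epithelial marker. The miR-181 members share 1 seed, and miR-10a-5p had the largest fitted deficit of the eyeball against the mean of the other organs.
miR-184: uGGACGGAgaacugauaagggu
miR-204: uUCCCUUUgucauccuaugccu
miR-211: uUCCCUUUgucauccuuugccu
miR-183: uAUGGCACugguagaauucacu
miR-96: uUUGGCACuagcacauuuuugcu
miR-182: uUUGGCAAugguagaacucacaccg
miR-9: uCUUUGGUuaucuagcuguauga
miR-128: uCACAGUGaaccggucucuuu
miR-137: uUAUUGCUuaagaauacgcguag
miR-205: uCCUUCAUuccaccggagucugu
miR-181a: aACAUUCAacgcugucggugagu
miR-181b: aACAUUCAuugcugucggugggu
miR-181c: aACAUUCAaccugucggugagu
miR-181d: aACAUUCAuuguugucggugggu
miR-10a-5p: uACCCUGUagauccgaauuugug

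miR-204 and miR-211 have the same seed and the same length of 22 bases. They differ by 1 base, A17U, counted from the 5′ end with the base of miR-204 first. miR-204 lies at chr1:229743493-229743514 on the plus strand within the protein-coding gene Trpm3, and miR-211 at chr1:127189353-127189374 on the plus strand within Trpm1, which encodes a cation channel of retinal bipolar cells and melanocytes. miR-183, miR-96 and miR-182 lie together on the minus strand at chr4:59752249-59756127, a stretch of 3879 bases, and no protein-coding gene of the annotation spans them. Their seeds are close but not the same: that of miR-96 departs from that of miR-183 by A2U, and that of miR-182 from that of miR-96 by C8A. miR-184 lies at chr8:99222991-99223012 on the minus strand, with no protein-coding gene spanning it.

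Signals are given as scaled signal, the fluorescence of a miRNA's probes after each array was brought to a common 75th percentile, with a floor of 10.8 below which values have no order. Detection on an array meant that more than 50% of a miRNA's spots there, with outlier spots left out, were well above background. Signals of different miRNAs are not compared, since their probes differ. Levels are arithmetic means, while folds between groups come from means on the log2 scale and are ratios of geometric means. Of 717 miRNAs on the array, 345 were detected on all 3 arrays of at least 1 perfused organ and were tested. Of these, 153 were detected on all 3 eyeball arrays and 156 on none of them.

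Over all 345 miRNAs, limma called 58 higher in the eyeball than in the mean of the other 54 organs, 16.8% of those tested, and 14 lower, 4.06%. A call required a Benjamini-Hochberg adjusted p under 0.05 and at least a 2-fold difference. The median difference over all miRNAs tested was -0.09 on the log2 scale. Another scaling moved this balance: with quantile normalization there were 38 higher and 33 lower calls, with the authors' normalized values there were 32 and 39, with a 75th percentile over all miRNAs of the array 34 and 47, and with no scaling 44 and 19. The shift of the median difference was -0.41, -0.68, -0.58 and -0.30 in that order. Of the calls, 31 of 58 higher and 13 of 14 lower were also called under each of the first 3, which are the other scalings named below. Many miRNAs sat at the floor in most organs, where they had no spread, so the standard errors and p-values of limma, which pool the spread within all organs, are small for them and the values of each rat are the better guide.

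**Figure D1:**
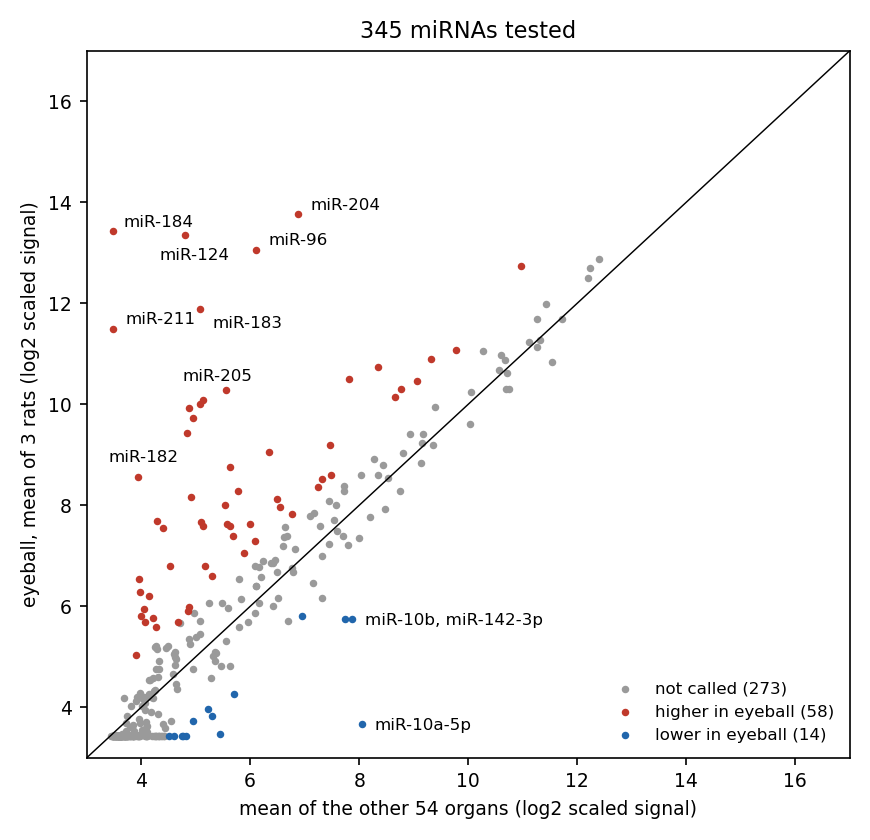
Mean log2 scaled signal of the eyeball (y axis, 3 rats) against the mean of the other 54 organs (x axis) for the 345 miRNAs tested, 1 point per miRNA, coloured by the call. The 58 miRNAs called higher reach differences of 9.95 on the log2 scale, whereas among the 14 called lower miR-10a-5p, at -4.38, stands apart.

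The largest fitted excess over the other organs was that of miR-184, with no order read among miRNAs at the floor in most organs. Its scaled signal was 10066, 9822 and 13672 in rats 4, 5 and 6. It was detected on 4 arrays of other organs (2.47% of them) and on all 3 arrays of 0 other organs, and the highest value outside the eyeball was 69.1, on a pancreas array that did not have it above background. The 3 eyeball arrays thus lay far above every other array, without overlap. The log2 difference from the other organs was 9.95 ± 0.09 (SE; limma adjusted p = 1.19e-114), and since the miRNA was below background in most organs this is read as at least 753-fold. miR-184 passed the detection filter only through the eyeball, so no support is drawn from its p-value and the values of each rat are the guide. All 3 pancreas arrays had weak signals and were scaled up the most, so their lowest values are the least certain.

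miR-211 showed the same restriction. It read 2958, 2791 and 2930 in the 3 rats and was detected on 6 arrays of other organs (3.70%). The highest value outside the eyeball was 26.2, on a pancreas array that did not have it above background. The eyeball was at least 197-fold above the other organs (log2 difference 8.01 ± 0.06 SE, limma adjusted p = 1.36e-121). No other organ had miR-211 on all 3 arrays, so it too passed the detection filter only through the eyeball, and no support is drawn from its p-value. The passenger strand of the same hairpin, miR-211*, gave 21.5, 23.6 and 25.3 in the eyeball and did not pass the test against the other organs (log2 difference 0.41 ± 0.25 SE, limma adjusted p = 0.13).

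Its near relative miR-204 was broader. It read 13722, 13027 and 15129 in the eyeball and was detected on 85.8% of the arrays of other organs. The order after the eyeball was optic nerve (2333 ± 592 SD, n = 3), cerebellum (1565 ± 281) and testicle (1246 ± 136). The lowest eyeball array lay above the highest other array, 2797 in the optic nerve, and the eyeball was 6.12-fold above the optic nerve mean. The log2 difference from the other organs was 6.89 ± 0.26 (SE; limma adjusted p = 3.81e-49). In the 5 organs with the most miR-204 after the eyeball, the miR-211 probe gave means between 10.8 and 17.8, at or near the floor, although the 2 sequences differ by 1 base. Of the 5 miRNAs of the lens, pigment epithelium and ciliary body list on the array, 4 were tested and these 3 were called higher, with no lower call, beside 16.8% and 4.06% of all miRNAs. miR-184 and miR-211 were tested only because the eyeball itself had them on all 3 arrays. The filter thus sets part of this count, and nothing is concluded from it.

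**Figure D2:**
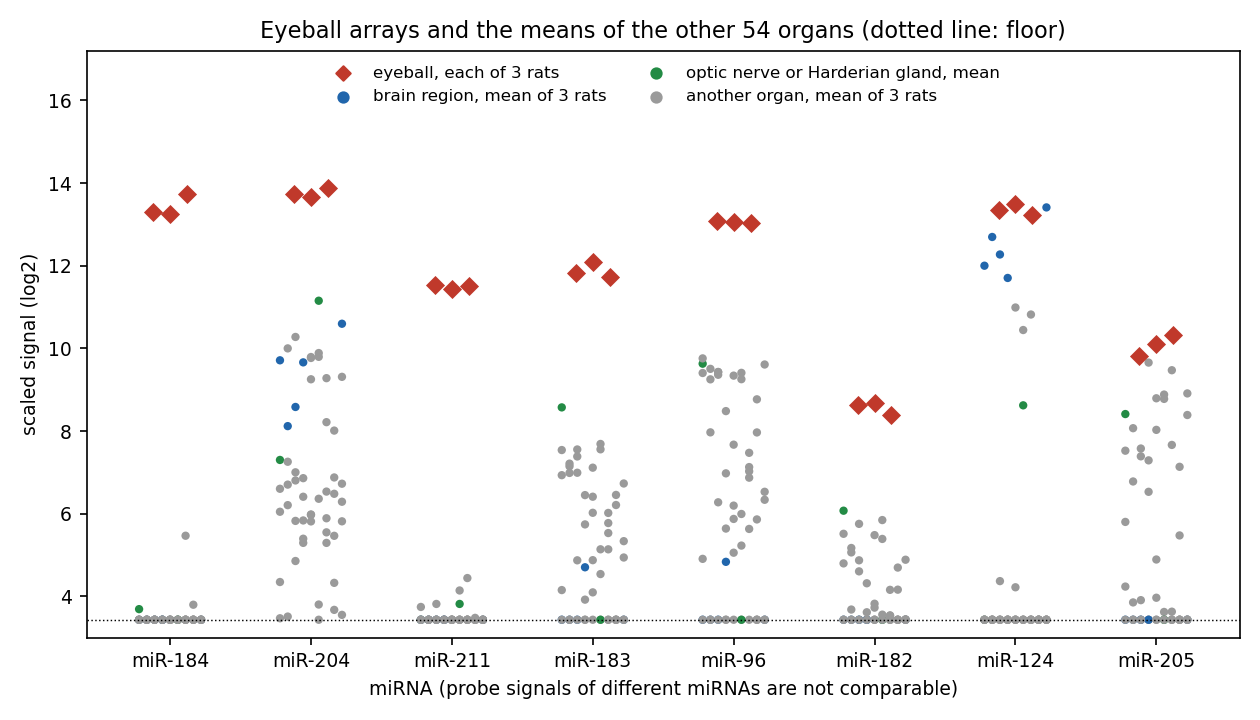
Log2 scaled signal (y axis) of 8 miRNAs (x axis) on the 3 eyeball arrays (red diamonds) and as the mean of 3 rats in each of the other 54 organs (circles: blue for 5 brain regions, green for optic nerve and Harderian gland, grey for the rest). For the first 6 miRNAs the diamonds lie clear of all circles, whereas for miR-124 the cerebellum lies among them and for miR-205 the skin lies close below.

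The miR-183 cluster was next. miR-183 read 3607, 4359 and 3416 in the eyeball, and the Harderian gland, a lipid-secreting gland behind the eye, followed at 384 ± 55.9 (SD, n = 3). miR-96 read 8700, 8557 and 8450, with the ventral prostate at 878 ± 180 behind it. The Harderian gland, at 798 ± 110, and the other prostate lobes were level with each other and followed. miR-182 read 397, 413 and 333, and the Harderian gland followed at 67.5 ± 3.96. For each of the 3 miRNAs the eyeball arrays lay above all others without overlap, and the eyeball mean was 9.90-fold, 9.89-fold and 5.63-fold that of the next organ. The log2 differences from the other organs were 6.81 ± 0.23 for miR-183, 6.96 ± 0.28 for miR-96 and 4.63 ± 0.12 for miR-182 (SE; limma adjusted p = 1.03e-53, 5.61e-46 and 5.7e-65). miR-182 was detected on 7.41% of the arrays of other organs, miR-183 on 57.4% and miR-96 on 61.1%. No order is read from these shares, since the probes differ. Passenger strands miR-183* and miR-96* were on the array and were detected on 0 eyeball arrays.

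The 4 miRNAs taken as eyeball markers, miR-184, miR-183, miR-124 and miR-204, were all among the 12 largest excesses. The 6 miRNAs above, 1.74% of those tested, were the only ones whose lowest eyeball array exceeded every array of another organ, and 0 lay below all others. Without the pancreas arrays, a setting added once the data had been seen, the number above or below all others was again 6. The 3 eyeball arrays resembled each other, with correlations across the 345 miRNAs from 0.990 to 0.994, which are not independent observations. The 153 miRNAs detected on all 3 had a median range between rats of 1.23-fold.

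miR-124, an abundant miRNA of mature neurons, read 10501, 11502 and 9595 in the eyeball, a mean of 10533 ± 954 (SD, n = 3). The eyeball had rank 2 of 55 organs, behind the cerebellum (11001 ± 1964) and ahead of the cerebral cortex (6641 ± 359). The cerebellum and eyeball arrays overlapped, while every eyeball array lay above every cortex array. The optic nerve, which holds the axons of retinal neurons but not their cell bodies, gave 269, 473 and 482. Against the other organs the log2 difference was 8.56 ± 0.10 (SE; limma adjusted p = 5.13e-102). Against the mean of the 5 brain regions it was 0.94 ± 0.11 (SE), below the 2-fold that a call required.

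Other neuronal miRNAs followed another order. miR-9 and its partner strand miR-9*, which act in neural progenitors and neurons, were high in the eyeball against all other organs, with log2 differences of 4.78 ± 0.14 and 4.92 ± 0.11 (SE), but both ranked 9 of 55. miR-9 read 994, 787 and 778 in the eyeball against 1750 to 4722 over the 15 brain arrays, so the groups did not overlap. The miR-129 family, a group of brain-enriched miRNAs, gave log2 differences of 3.38 ± 0.11 for miR-129, 4.59 ± 0.21 for miR-129-1* and 5.06 ± 0.19 for miR-129-2* against the other organs, and ranked 6 of 55 in each case. Against brain these 3 were at -0.75, -0.70 and -0.82, with adjusted p of 1.79e-08, 0.00638 and 0.000241 by limma, and fell short of the 2-fold that a call required. All 3 were below the cerebral cortex in each rat. miR-128 read 109, 105 and 111 in the eyeball and did not differ from the other organs beyond the error (log2 difference -0.01 ± 0.17 SE, limma adjusted p = 0.95).

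Set against brain (cerebral cortex, hippocampus, thalamus, cerebellum and medulla oblongata; 15 arrays), the eyeball had 57 higher calls by limma, 16.5% of those tested, and 68 lower, 19.7%. Of the 19 probes on the neuronal list 15 were tested, of which 11 were called lower than in brain, 0 higher and 4 neither. The 4 were miR-124 and the miR-129 family. The median of the tested members was -1.89 on the log2 scale, beside 0.00 over all miRNAs. The same 11 were called lower under each of the 3 other scalings. Members that the eyeball did not have on all 3 arrays, such as miR-137, were tested only because another organ had them. The filter thus sets part of the count of lower calls, and nothing is concluded from that count. The brain mean covers regions that differ: in the cerebellum alone miR-7a read 77.8, 78.2 and 72.2, below the eyeball at 122, 114 and 94.0, while miR-212 was at the floor in both organs and the miR-7b arrays of both overlapped. Against all other organs 7 of the 15 were called higher and 0 lower, beside 16.8% and 4.06% of all miRNAs.

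miR-128, which is enriched in neurons of the forebrain, spanned 1454 to 8912 over the brain arrays, and brain was 29.4-fold above the eyeball (log2 difference -4.88 ± 0.18 SE, limma adjusted p = 3.11e-49). miR-137, a regulator of neuronal maturation, was detected on all 15 brain arrays and 0 eyeball arrays, which puts brain at least 14.5-fold higher. miR-138, a synaptic regulator, was likewise at least 8.62-fold higher in brain. miR-132, an activity-induced miRNA, read 37.1, 42.0 and 31.7 in the eyeball, and brain was 8.25-fold higher. All eyeball values of these 4 miRNAs lay below all 15 brain arrays. On the slides that held both organs of a rat, the eyeball minus cerebral cortex difference of miR-128 was -6.26, -6.33 and -6.33 in the 3 rats, and that of miR-124 was 0.59, 0.88 and 0.52. Of the 125 miRNAs called against brain, 124 had the same direction in all 3 such pairs of eyeball and cortex. These arrays are among those that gave the calls, so the agreement is no separate support.

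**Figure D3:**
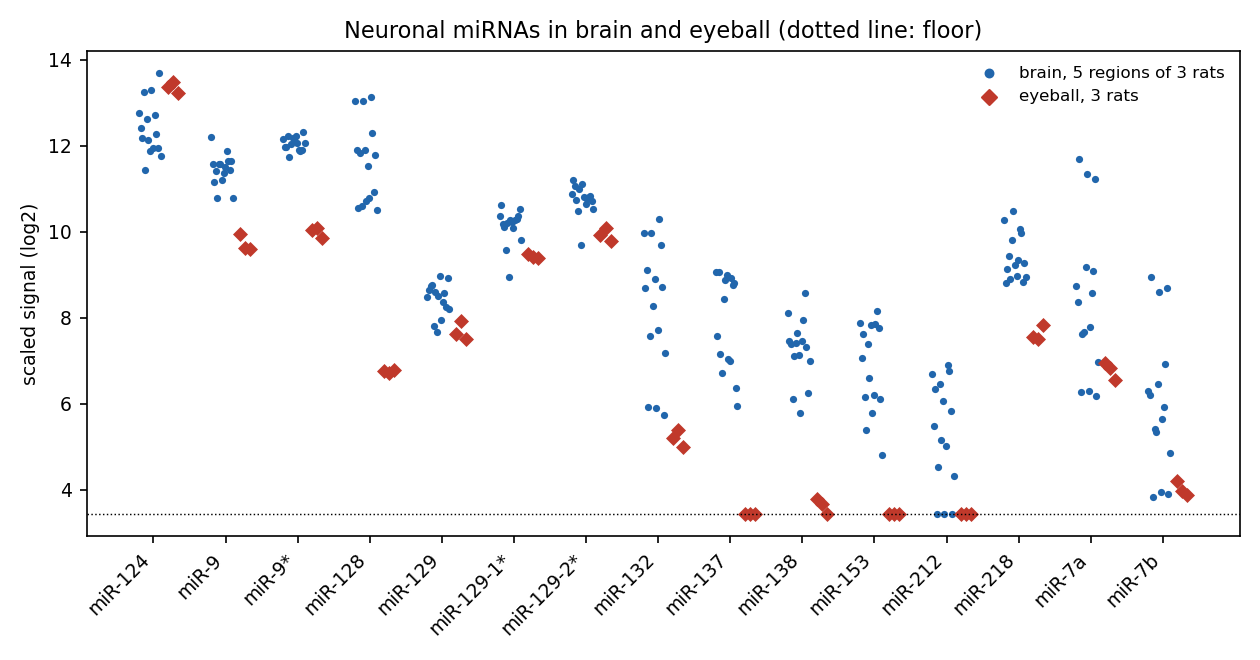
Log2 scaled signal (y axis) of the 15 tested neuronal miRNAs (x axis) on 15 arrays of 5 brain regions (blue circles) and 3 eyeball arrays (red diamonds), with the floor as a dotted line. miR-124 in the eyeball lies within the brain range, the miR-129 family at its lower end, and miR-137 and miR-153 at the floor.

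In the higher direction against brain, miR-184 was at least 1009-fold above, as it was on 0 brain arrays. miR-219-5p and miR-219-2-3p, made by oligodendrocytes, which form myelin, were detected on 0 eyeball arrays. Brain was at least 28.1-fold and 16.8-fold higher, and the optic nerve, a myelinated tract, at least 64.1-fold and 39.6-fold higher (limma adjusted p from 6.37e-47 to 3.26e-44 over the 4 comparisons). miR-338, a further oligodendrocyte miRNA, read 244, 194 and 247 in the eyeball against 2492, 3817 and 3194 in the optic nerve (log2 difference -3.78 ± 0.37 SE, limma adjusted p = 1.35e-16). All 3 tested myelin miRNAs were called lower than in brain, beside 19.7% of all miRNAs, and than in optic nerve, beside 3.19%, while against all organs miR-338 was called higher by 1.07 ± 0.26 (SE), a call that was lost under the 3 other scalings, with no scaling (0.68), with a floor 4 times higher (0.83), with normexp background correction (0.25) and without rat 6 (0.94). miR-219-5p was called lower than in all other organs, which were at least 1.69-fold higher, also under the 3 other scalings, though not with either other floor, normexp background correction or the slide as a fixed term. Both miR-219 miRNAs were tested only through other organs, so the filter sets part of the myelin counts.

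Against the optic nerve, 55 miRNAs were called higher in the eyeball by limma, 15.9%, and 11 lower, 3.19%. With the other 3 scalings the lower count rose to between 37 and 49, and 26 of the 55 higher calls were made under all of them. Besides the myelin miRNAs, the largest deficits were in miR-322 (-1.38 ± 0.26 SE) and miR-340-3p (-1.29 ± 0.17 SE). Among the largest fitted excesses, with no order read among them, were miR-184, at least 856-fold, miR-96, at least 664-fold, and miR-183, at least 292-fold, which were below background on all 3 optic nerve arrays. miR-211 was above background on 1 of 3 nerve arrays, where it read 11.8, 13.1 and 18.3, far below the eyeball arrays. miR-205 v15.0, at least 96.6-fold higher, and miR-205, at least 84.4-fold higher, were also below background on those arrays. Of the neuronal list, 5 of 15 were called higher than in the optic nerve, among them miR-124 at 4.74 and miR-129-2* at 1.15, and 3 of the 5 were called under the 3 other scalings too.

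miR-205 read 905, 1109 and 1287 in the eyeball, the highest mean of 55 organs, followed by skin (595, 833 and 1064) and esophagus (842, 356 and 1196). The arrays of these 3 organs overlapped, so no order is drawn among them. A second probe set for the same miRNA, marked v15.0 in the array design, placed the eyeball at rank 3, behind the esophagus and skin. Against all other organs miR-205 was higher by 4.95 ± 0.21 (SE; limma adjusted p = 2.44e-43). miR-203, a brake on division in stratified epithelium, read 438, 532 and 352 and ranked 12, below skin (1952 ± 727 SD) and esophagus (4888 ± 2961). miR-31, also of squamous epithelium, read 301, 240 and 331 and was higher than in the other organs by 3.25 ± 0.27 (SE).

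The miR-200 family, which maintains the epithelial state, stood at middle rank. miR-200b read 561, 657 and 539, with rank 22 of 55, and miR-200a had rank 25. miR-141 read 68.3, 82.9 and 47.8, with rank 27. Of the 16 probes on the surface epithelium list 13 were tested, 7 of which were called higher than in the other organs and 1 lower, beside 16.8% and 4.06% of all miRNAs, with a median of 1.13 beside -0.09 over all miRNAs. Under the 3 other scalings 4 of the 7 higher calls and the lower call were made too. The lower one, miR-200c, was below background on all eyeball arrays, whereas its second probe set, v15.0, read 381, 445 and 348 and was called higher by 1.13 ± 0.29 (SE), a call lost under the 3 other scalings (0.60, 0.38 and 0.41 in the order above), with no scaling (0.82), with a floor 4 times higher (0.30), with normexp background correction (0.20) and without rat 5 (0.98). The 2 probe sets therefore disagree, and no direction against the other organs is given for miR-200c. Against brain and against optic nerve, 10 of the 13 were called higher in each case, beside 16.5% and 15.9% of all miRNAs, and 0 lower.

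Against the Harderian gland, limma called 70 miRNAs higher in the eyeball, 20.3%, and 27 lower, 7.83%. Under the 3 other scalings the higher count was 40 to 41 and the lower count 47 to 57, and all 27 lower calls were made under each. The epithelial list parted here: 8 of 13 were lower in the eyeball and 3 higher, with a median of -2.06 beside 0.00 over all miRNAs. miR-141 differed by -4.55 ± 0.39 and miR-200c v15.0 by -4.19 ± 0.40 on the log2 scale (SE; limma adjusted p = 2.73e-20 and 4.83e-17). miR-200c itself was at least 20.0-fold higher in the gland. The 3 called higher, of which 2 were called under the 3 other scalings too, were miR-205, at 1.68, whose v15.0 probe set was at 0.65 ± 0.28 (SE; limma adjusted p = 0.0519) and was not called, with miR-31 at 2.88 and miR-31* at 2.34. miR-375, an endocrine and secretory cell miRNA, was below background in the eyeball and at least 13.5-fold higher in the gland. miR-3584-5p differed by -4.56 ± 0.87 (SE), and it reached its highest organ mean in the pancreas.

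The 5 miRNAs with the largest fitted excess over the gland were miR-124, miR-184, miR-211, miR-9* and miR-129-2*, with no order read among them, since the gland values were mostly at the floor. miR-124 was at least 692-fold, miR-9* at least 67.4-fold and miR-129-2* at least 64.4-fold higher in the eyeball, since the gland had none of them above background, and 9 of 15 members of the neuronal list were called higher, beside 20.3% of all miRNAs, 8 of them also under the 3 other scalings. miR-184 was above background on 1 of 3 gland arrays, where it read 18.5, 10.8 and 10.8, far below the eyeball arrays, and miR-211 was at least 191-fold higher. All 97 calls against the Harderian gland had the same direction in all 3 rats on the slide that held both organs. The calls were made on these same arrays, so the agreement was largely set in advance and nothing is concluded from it.

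**Figure D4:**
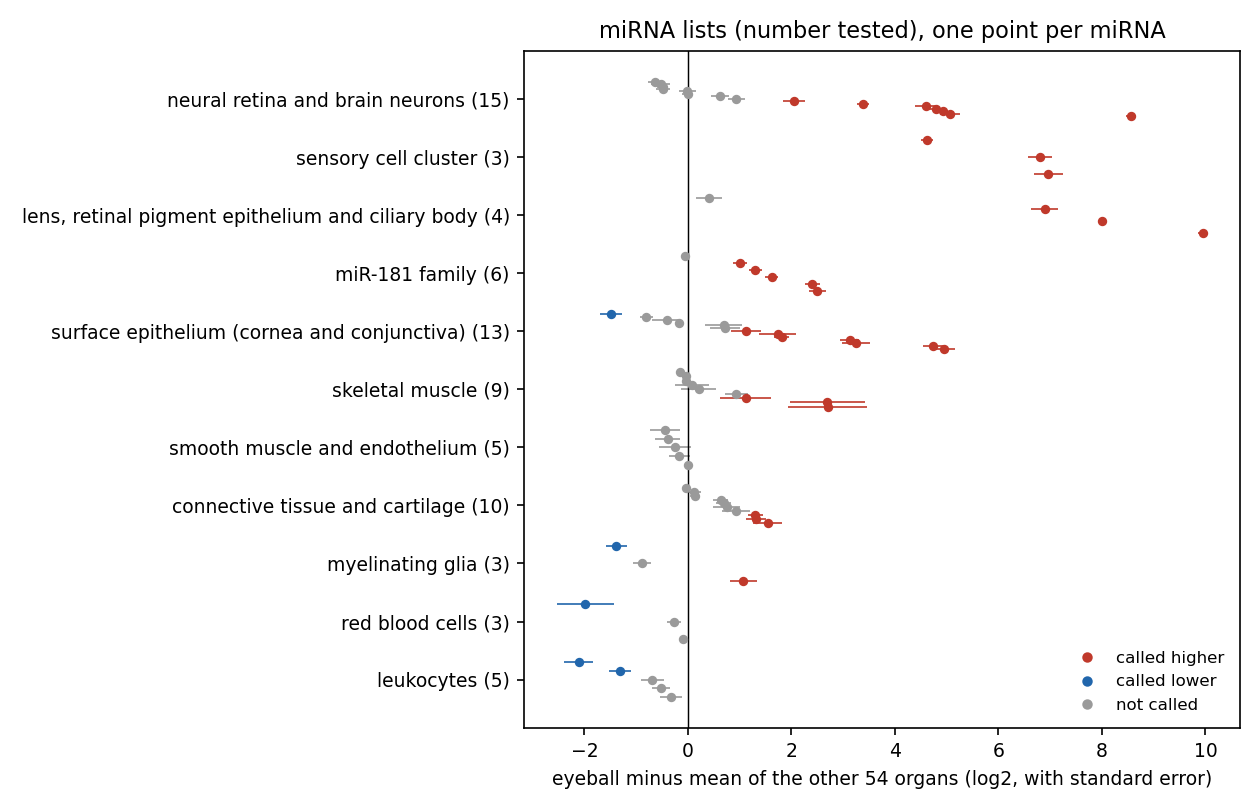
Eyeball minus the mean of the other 54 organs on the log2 scale (x axis; bars are standard errors from limma) for each tested member of 11 miRNA lists (y axis; number tested in parentheses). The sensory cell cluster and 3 of 4 lens and pigment epithelium miRNAs lie beyond 4, whereas the smooth muscle and endothelium list has no call.

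The miR-181 family, a group best known from developing lymphocytes and also found in the inner retina, was mostly higher in the eyeball. miR-181a read 1626, 2051 and 1508 and had rank 2 of 55, behind the thymus (10408 ± 764 SD), where all 3 arrays were higher. miR-181b read 298, 385 and 262, with rank 7. Of 10 probes on the array 6 were tested and 5 were called higher than in the other organs, beside 16.8% of all miRNAs, with a median of 1.46 beside -0.09 over all miRNAs, while miR-181b-1* was below background in the eyeball and was not called. Only miR-181a, at 2.40 ± 0.15, and miR-181b, at 2.50 ± 0.16 (SE), were called under the 3 other scalings too. miR-181c, miR-181d and miR-181a-1* fell short of the call in each. The difference of miR-181d shrank to 0.34 with quantile normalization, 0.34 with the authors' values and 0.25 with the 75th percentile over all miRNAs (limma adjusted p = 0.0515, 0.0477 and 0.141). miR-181d, at 1.01 ± 0.14, also fell short without rat 4 (0.99), without rat 5 (0.97) and without the eyeball of rat 5 (0.96). Against brain and against optic nerve 0 of the 6 were called in either direction, while 5 were called higher than in the Harderian gland, beside 20.3% of all miRNAs, 2 of them also under the 3 other scalings.

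Skeletal muscle miRNAs were the ones that varied most between the 3 eyeballs. miR-1 read 214, 608 and 1143, miR-133b 750, 1424 and 2898, and miR-206, from skeletal muscle, 14.3, 90.8 and 195. Rat 4 was lowest and rat 6 highest for each. Among all 345 miRNAs the 5 widest ranges between eyeball arrays were those of miR-206, miR-1, miR-133a*, miR-133b and miR-133a, from 3.77 down to 1.93 on the log2 scale, beside a median of 0.30 over the miRNAs detected on all 3. Of these 5, miR-206 and miR-133a* were detected on 2 eyeball arrays and miR-133a on 0, so their ranges rest in part on values below background. miR-124 and miR-184 did not follow the order from rat 4 to rat 6. However, miR-205 (905, 1109 and 1287) and miR-143 (1034, 1223 and 1562) did, over narrower log2 ranges of 0.51 and 0.59. The order is therefore not particular to skeletal muscle miRNAs.

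The eyeball levels of muscle miRNAs were far below those of muscle. In the femoris muscle miR-1 gave 68072 ± 5465 (SD, n = 3) and miR-133b 84187 ± 6819, while miR-206 gave 8599 ± 2362 in the musculus soleus. Over the 14 probes of the skeletal muscle list the summed signal was 1133, 2290 and 4478 in the 3 eyeballs, against organ means from 152 to 162005 with a median of 363. The heart miRNA miR-208 was below background on all eyeball arrays. Of 9 tested, 3 were called higher than in the other organs, beside 16.8% of all miRNAs, namely miR-1 by 2.70 ± 0.76, miR-133b by 2.70 ± 0.72 and miR-206 by 1.11 ± 0.49 (SE). The miR-206 call was lost under the 3 other scalings (0.55, 0.43 and 0.51), with no scaling (0.65) and with the slide as a fixed term (1.41, limma adjusted p = 0.116). It was also lost without the eyeball of rat 5 (0.85) and without that of rat 6 (0.30). The calls of miR-1 and miR-133b were made under the 3 other scalings too, and that of miR-1 was lost with normexp background correction (1.08, limma adjusted p = 0.114). The optic nerve and Harderian gland also varied: miR-133b read 2798, 10.9 and 13.1 in the nerve and 2240, 843 and 71.9 in the gland, highest in rat 4. The part of adhering muscle in these values was not tested.

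**Figure D5:**
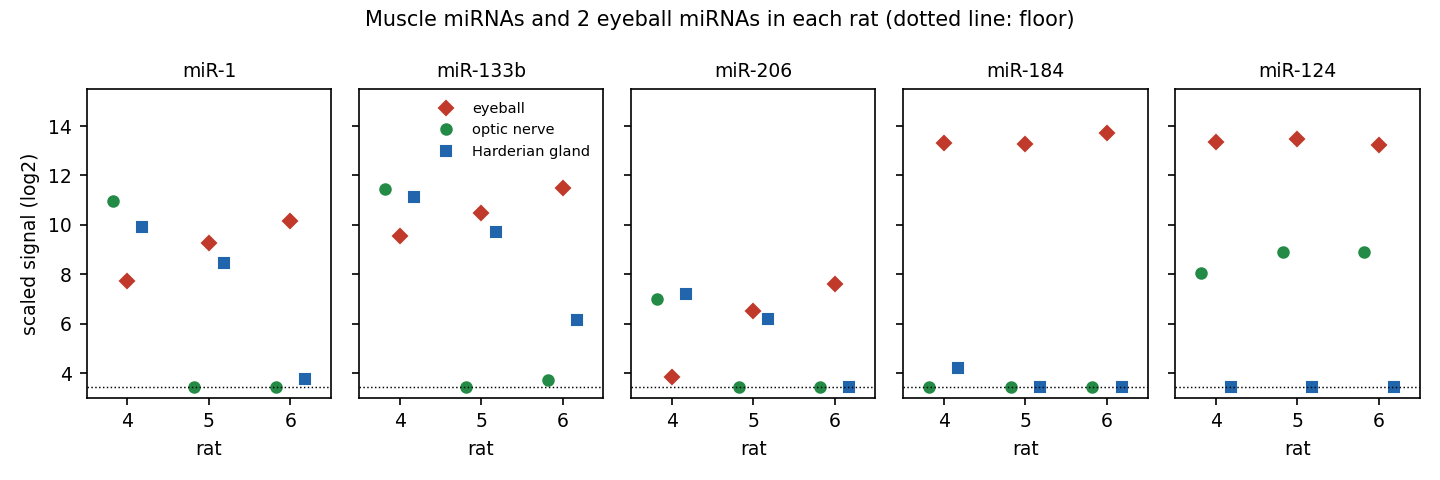
Log2 scaled signal (y axis) of 3 muscle miRNAs, miR-184 and miR-124 in rats 4, 5 and 6 (x axis) for eyeball (red diamonds), optic nerve (green circles) and Harderian gland (blue squares), with points moved sideways for clarity. In the eyeball miR-1, miR-133b and miR-206 are lowest in rat 4 and highest in rat 6, in the nerve and gland they are highest in rat 4, and miR-184 and miR-124 of the eyeball stay within a narrow range.

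Markers of smooth muscle, endothelium, connective tissue and cartilage gave no call against the other organs that was made under all 3 other scalings. Of the smooth muscle and endothelium list 0 of 5 tested were called against the other organs, where 16.8% of all miRNAs tested were called higher and 4.06% lower. miR-126, an endothelial miRNA, read 585, 625 and 546, close to the organ median of 575. miR-143, from smooth muscle, read 1034, 1223 and 1562 beside a median of 1572. Of 10 tested miRNAs of connective tissue and cartilage 3 were called higher, beside the same 16.8%, namely miR-199a-3p at 1.54 ± 0.28, miR-455* at 1.32 ± 0.19 and miR-29c at 1.30 ± 0.15 (SE), and none of the 3 was called under all 3 other scalings. The miR-199a-3p call was also lost with the slide as a fixed term (0.925). miR-140, the cartilage miRNA, read 275, 280 and 260 and ranked 11.

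Of 3 tested red blood cell miRNAs 1 was called lower than in the other organs, and of 5 tested leukocyte miRNAs 2, miR-142-3p and miR-142-5p, were called lower, beside 4.06% of all miRNAs tested. The 3 lower calls were made under the 3 other scalings too. Those of miR-451 and miR-142-5p were lost with a floor 4 times higher (-0.87 and -0.66) and with normexp background correction (-0.68 and -0.44). miR-451, the main miRNA of red blood cells, was below background on all 3 eyeball arrays, at 11.5, 10.8 and 10.8, and the mean over the other organs was at least 2.61-fold higher (limma adjusted p = 0.00125). Its neighbours miR-144 and miR-144* were also below background, so all 4 probes on the red blood cell list were detected on 0 eyeball arrays. Those tested passed the filter only through other organs, as did miR-142-5p, so the filter sets part of both lower counts. miR-142-3p, which marks all white blood cells, read 49.6, 61.6 and 51.7, rank 48 of 55, and was called lower than in the other organs (log2 difference -2.11 ± 0.29 SE, limma adjusted p = 1.77e-10). miR-223, of neutrophils and macrophages, read 116, 149 and 120 against an organ median of 148 and was not called.

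The largest deficit of the eyeball was in miR-10a-5p, which was below background on all 3 arrays, at 15.0, 10.8 and 12.6. It was detected on all 3 arrays of 44 other organs and on 88.3% of the arrays of other organs, and the other organs were at least 15.8-fold higher on average (log2 difference -4.38 ± 0.21 SE, limma adjusted p = 1.43e-38). Only the thalamus and mandibular gland also had it on 0 arrays. miR-10b differed by -1.98 ± 0.22 on the log2 scale (SE; limma adjusted p = 2.1e-14), with 63.8, 63.3 and 39.1 in the eyeball. miR-196a and miR-196b were below background in the eyeball and were called lower, with the other organs at least 1.46-fold and 1.62-fold higher, yet 35 and 34 other organs also had them on 0 arrays. Both calls were lost with a floor 4 times higher (-0.53 and -0.57) and with normexp background correction (-0.29 and -0.35).

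These 4 miRNAs lie in the Hox gene clusters, which pattern the trunk and hindbrain. In GRCr8 the nearest protein-coding gene is Hoxb4 for miR-10a, Hoxd4 for miR-10b, Hoxc10 for miR-196a and Hoxa10 for miR-196b. miR-10a-5p gave 11.3 ± 0.83 in cerebral cortex and 10.9 ± 0.11 in cerebellum, close to the eyeball at 12.8 ± 2.07, while it gave 42.2 ± 5.02 in medulla oblongata and 1002 ± 128 in the cervical spinal cord (SD, n = 3). The optic nerve, at 19.5 ± 6.37, and the Harderian gland, at 18.9 ± 3.92, were also low. For miR-10b the eyeball, at 55.4 ± 14.1, was above cerebral cortex, hippocampus and thalamus, all at the floor, and below the Harderian gland at 139 ± 10.8.

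Across the 345 miRNAs, the organ profiles closest to the eyeball were those of thyroid (Pearson r = 0.819), optic nerve (0.819) and Harderian gland (0.799). The cerebellum followed at rank 15 (0.756), the cerebral cortex at rank 29 (0.700), and the pancreas was last at 0.343. These correlations describe 1 scaling and are across miRNAs, which are not independent.

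Perfused arrays detected 86 to 244 miRNAs each, and the 3 eyeball arrays detected 181, 186 and 155. The 3 pancreas arrays were the weakest, with a 75th percentile of 68.0 to 121 before scaling against 1113 to 1546 for the eyeball. Leaving them out left 335 miRNAs tested, and the counts against the other organs were again 58 and 14. The lower call of miR-3584-5p was then lost (-1.22, limma adjusted p = 0.0813). That call was also lost with either other floor, with normexp background correction and with the slide as a fixed term. It was lost as well without any 1 of the eyeball arrays, without rat 5 and without rat 6. The 3 eyeball arrays were on 3 slides, each of which held organs of the same rat only, so that rat and slide cannot be told apart. Nothing in the labels says more of how the rats differed. The p-values rest on the spread between arrays of the same organ, pooled over all organs of these 3 animals. They take the arrays of a rat as independent and are not a measure of the spread between the 3 eyeballs alone.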

How the data were processed

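RNA of each organ was hybridised to 1-colour Agilent rat miRNA arrays, 1 array per organ and rat. The deposited files are the scanner's spot intensity for every array, extracted by Agilent Feature Extraction 10.7.3, and the authors' normalized intensity table, which on each array is the scanner software's total gene signal multiplied by 1 factor, from 0.411 to 10.5; per the study's methods it was brought to the 75th percentile.

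Here, outlier spots were left out, processed signals of the spots of each of 717 miRNAs were averaged, and each array was scaled to the mean 75th percentile (2118) of the 37 miRNAs detected on all 180 arrays. A floor of 10.8, the median over arrays of the lowest detected signal, was set before log2. No spot of a miRNA was saturated (0 over all arrays). Arrays give no counts, so their number limits the precision. limma 3.58.1 (R 4.3.3) was fitted to the arrays of perfused rats with 1 term per organ, and 4 contrasts of the eyeball (against the mean of 54 organs, 5 brain regions, optic nerve and Harderian gland) were tested two-sided with Benjamini-Hochberg adjustment over 345 miRNAs. The fit was tested on simulated data. Where a group had a miRNA above background on no array, the fold is a bound, taken against the higher of the array's lowest detected signal and the probe's own.

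The miRNAs named are the 4 markers, those with all eyeball arrays above all others, the 12 largest calls each way against the other organs, the 5 largest each way in the other contrasts, and members of 11 lists of tissue miRNAs. Members and lists were chosen with earlier results of these data known. Labels of 8 arrays give 2 rat numbers, and an alternative leaves them out. Organs of a number come from the same rat. Residuals of arrays from the same rat correlated at 0.050 on average (0.171 on the same slide, 0.032 on different slides), and those of different rats at -0.033. The normexp alternative used median signals, since no mean signal is in the files used here. The alternatives of scaling, floor, background, filter, block, spread and arrays are given in the closing section.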

Additional observations from a re-analysis of the deposited data

How the results depend on the processing

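All 45 named miRNAs that were called against the other organs were recomputed under the alternatives, except that 19 of them did not pass the filter of 50% of arrays and have no value there. Of the 1106 values, 1104 kept their direction and 100 no longer passed the call, and 22 of the 45 were called under every alternative that gave them a test, among them miR-184, miR-211, miR-204, miR-183, miR-96, miR-182, miR-124, miR-205 and miR-10a-5p. With the median in place of the mean of the other organs, miR-194 became 0.30 and miR-200c 0.26, a reversed direction. The counts of calls moved more, and the cause was not tested beyond the settings themselves. Against the other organs, the higher count was 34 with the 75th percentile over all miRNAs, 38 with quantile normalization, 89 with a floor 4 times lower, 29 with normexp, 32 with the authors' table and 37 with the filter of 50% of arrays, which leaves 144 miRNAs. The lower count was 47, 33, 23, 3, 39 and 7 under these, and 8 with a floor 4 times higher. Against brain, the higher count was 33 with no scaling, and the lower count was 40 with the higher floor, 21 with normexp and 15 with the 50% filter. Against the optic nerve, the higher count was 30 with the 75th percentile over all miRNAs, 29 with quantile normalization, 35 with no scaling, 28 with normexp and 26 with the authors' table. The lower count was 37 with the 75th percentile over all miRNAs, 44 with quantile normalization, 18 with the lower floor, 7 with the higher floor, 4 with normexp, 49 with the authors' table and 6 with the 50% filter. Against the Harderian gland, the higher count was 41 with the 75th percentile over all miRNAs and with quantile normalization, 44 with the higher floor, 29 with normexp, 40 with the authors' table and 38 with the 50% filter, and the lower count was 57, 47, 16, 13 and 51 under the first 5 of these. The count of miRNAs above or below every other array was 3 with the 50% filter, 5 with normexp, 7 with the filter of 1 array and 6 to 8 when 1 rat or eyeball array was left out.

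Leaving out 1 rat or 1 eyeball array gave 55 to 60 higher and 12 to 15 lower calls against the other organs, 54 to 60 and 66 to 70 against brain, 47 to 59 and 8 to 12 against the optic nerve, and 70 to 77 and 23 to 26 against the Harderian gland. With the rat as a replicate block the counts were 58 and 14, 57 and 68, 55 and 11, and 70 and 27, the same as without it, so that pairing by rat changed no count. With the slide as a fixed term they were 62 and 12 against the other organs. miRNAs near the floor, 156 of those tested in the eyeball, limit what can be read as a deficit, since a probe below background gives only a bound.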

Other observations

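Among the miRNAs called higher in the eyeball than in the other organs, several outside the lists had a high rank, and they were chosen after their values were seen. miR-210, which is induced by low oxygen, read 205, 235 and 178 and had rank 2 of 55, behind the epididymis at 287 ± 53.2 (SD, n = 3). The log2 difference from the other organs was 2.58 ± 0.18 (SE; limma adjusted p = 5.17e-26). miR-135b read 98.7, 103 and 79.5, rank 3 behind the medulla oblongata at 219 ± 85.4, with a log2 difference of 2.59 ± 0.16. miR-582 read 119, 72.7 and 157, rank 2 behind the cerebellum at 157 ± 20.8, and the eyeball arrays overlapped those of the cerebellum. miR-130a read 1082, 1083 and 1226, rank 2 behind the kidney at 1341 ± 136, a difference of 1.49 ± 0.14 that was not called under all 3 other scalings.

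Members of a group of miRNAs that are encoded side by side, let-7e, miR-99b and miR-125a-5p, were also chosen after their values were seen. let-7e read 1350, 1424 and 1433 and was higher than in the other organs by 1.39 ± 0.16 (SE), miR-99b by 1.16 ± 0.14 and miR-125a-5p by 1.22 ± 0.16. The 3 calls were lost under at least 1 of the other scalings, and these miRNAs are highest in brain or pituitary.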
